A study of Homo sapiens with 4 samples.

Results

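The SRC family kinases LYN, FGR, FYN, LCK, BLK, SRC and YES1, together with SYK and BTK, were taken as 9 genes of 20163 protein-coding genes, and every peak that the deposited peak lists pair with one of these gene symbols was collected. The peaks came from chromatin immunoprecipitation sequencing (ChIP-seq) of WDR5 and of H3K4me3 in 2 untreated human leukemia cell lines, which gave 4 samples, 1 for each antibody in each line. RS4;11 is a B-cell precursor acute lymphoblastic leukemia line and THP-1 is a monocytic acute myeloid leukemia line. Both are known to carry a rearranged MLL gene, no normal blood cell was among the samples, and each line stands for 1 patient's leukemia. The labels name the antibodies ab56919 for WDR5 and ab8580 for H3K4me3. The cell type labels of the THP-1 WDR5 and the RS4;11 H3K4me3 sample give the other type of leukemia, so samples were grouped by line and antibody.

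SRC family kinases are membrane-anchored tyrosine kinases that phosphorylate the signalling motifs of antigen and Fc receptors. In B cells LYN, BLK and FYN begin this step, SYK docks on the phosphorylated motifs, and BTK, activated by both, passes the signal to phospholipase C. In myeloid cells LYN, FGR and SYK act below Fc receptors and integrins, and LCK does the corresponding work below the T-cell receptor. WDR5 is a shared subunit of the MLL and SET1 methyltransferase complexes that trimethylate lysine 4 of histone H3, and H3K4me3 marks the start sites of genes that are active or poised.

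All 9 genes had at least 1 H3K4me3 peak listed in each line, where 73.2% of all protein-coding genes in RS4;11 and 78.1% in THP-1 had one. The lists held 30 H3K4me3 peaks for these genes in RS4;11 and 35 in THP-1. A gene is listed for a peak inside it or up to 20 kb away, so a listing does not place the mark at a start site. Counted at the start sites of protein-coding transcripts (2000 bp upstream to 500 bp downstream, the promoter window), 6 of the 9 genes had H3K4me3 in RS4;11 against 54.9% of all genes, and 7 of 9 in THP-1 against 62.4%. WDR5 was listed for 1 of the 9 genes in each line, LCK in RS4;11 and LYN in THP-1, and the shares over all genes were 4.04% and 1.34%. With 1 sample for each antibody and line there is no replicate spread, so every difference between lines is a difference between 2 peak lists and was not tested. The lists carry no read numbers, heights or p-values, and the depth is unknown.

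**Figure D1:**
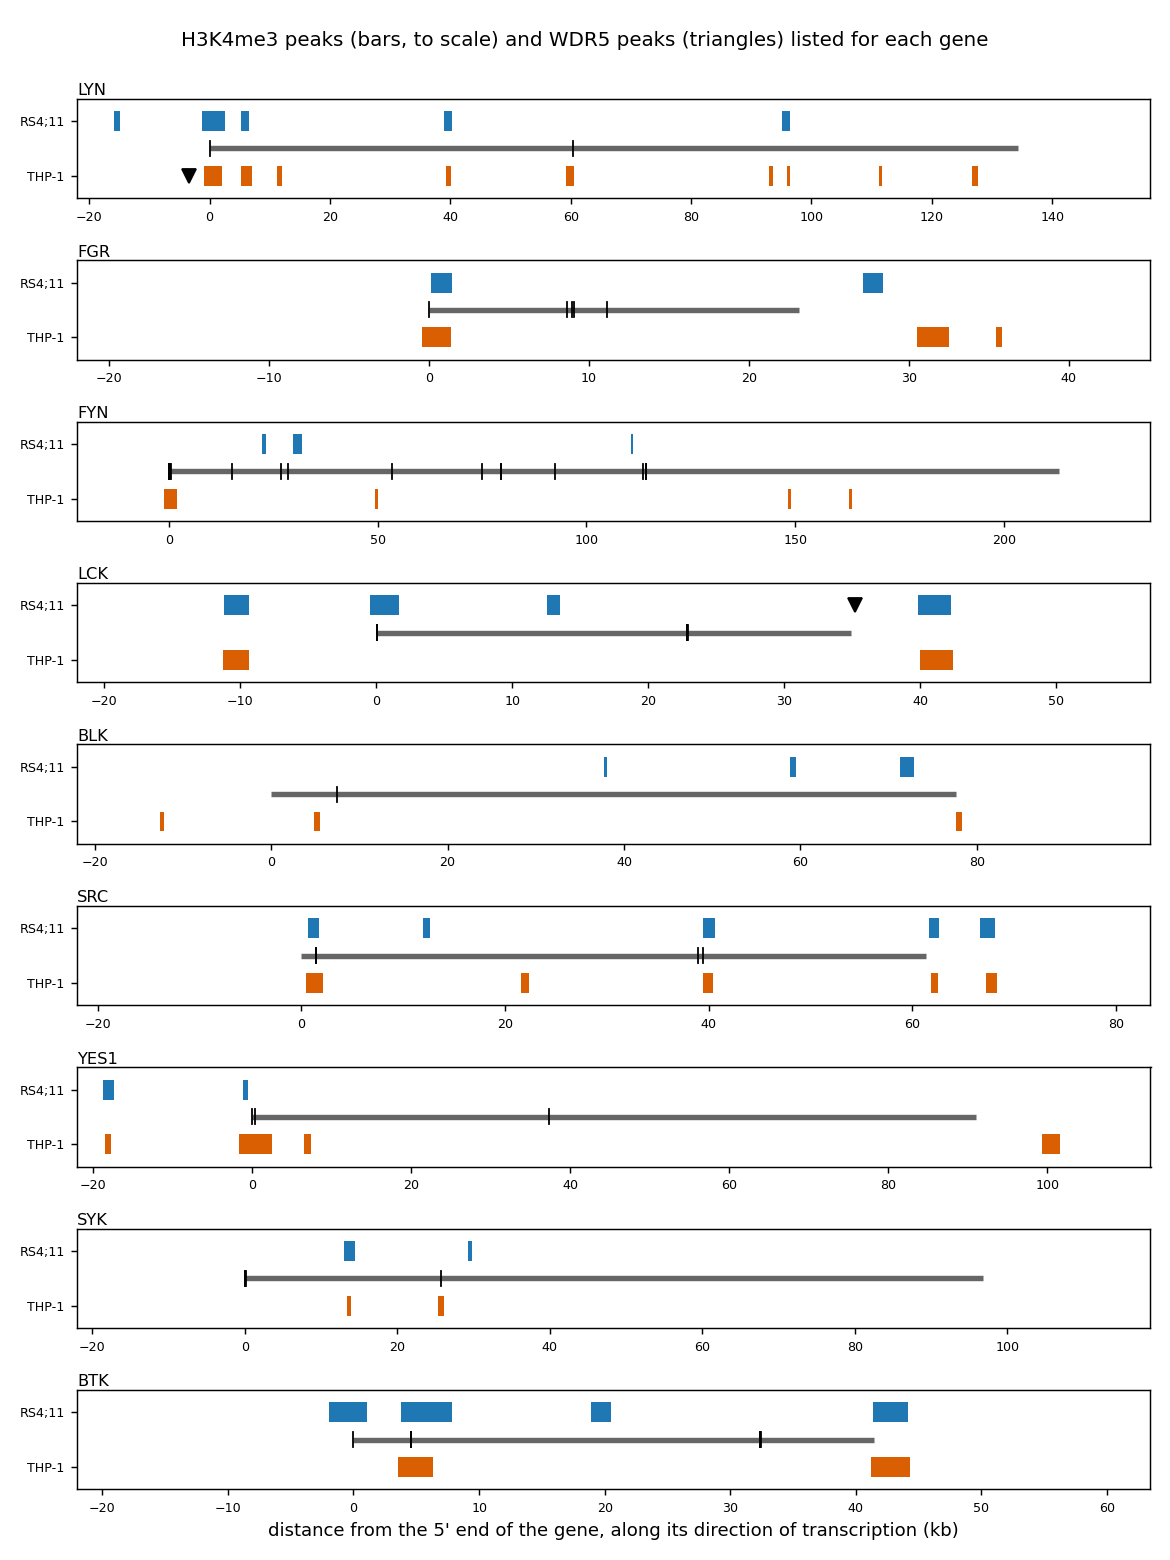
Position of every listed peak, in kb from the 5′ end of the gene along its direction of transcription, with 1 panel for each gene. The grey line is the gene, the ticks are start sites of protein-coding transcripts, the upper blue and lower orange bars are H3K4me3 peaks of the RS4;11 and THP-1 samples drawn to scale, and the black triangles are the WDR5 peaks. A start of FYN is covered in THP-1 only and the distal start of LCK in RS4;11 only, and both WDR5 peaks lie outside the gene.

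LCK, FYN and SYK were marked at a start site in 1 line and at none in the other, and starts of these genes from the RefSeq promoter table are printed so that the marked and unmarked starts can be set side by side. Each line holds the 250 bases upstream of 1 start, 5′ to 3′ on the strand of the gene. The bases are those of RefSeq on GRCh38.p14, and an exact match placed each in hg19. Capitals mark matches on either strand to GGGCGG (the GC box), TATAAA (the TATA box), GAGGAAG (an ETS-type core) and TGTGGT (a RUNX-type core). The LCK distal start (chr1:32716616-32716865, plus strand) had H3K4me3 in RS4;11 only, and the LCK proximal start (chr1:32739472-32739721, plus strand), inside intron 1 of the longer transcript, had it in neither line. The FYN start (chr6:112194656-112194905, minus strand) had H3K4me3 in THP-1 only. The more upstream SYK 5′ start (chr9:93563632-93563881, plus strand) had it in neither line, and the SYK internal start (chr9:93589452-93589701, plus strand) had it in THP-1 only. RefSeq and GENCODE place the SYK starts at slightly different bases, and these calls held for both. A second FYN start, the canonical SYK start and the upstream BTK start are described by composition and not printed, because 250, 32 and 112 of their bases lie in an annotated UTR. The printed lines of the LCK distal and proximal starts also share bases with an annotated UTR, 21 and 8 of them.
LCK distal start: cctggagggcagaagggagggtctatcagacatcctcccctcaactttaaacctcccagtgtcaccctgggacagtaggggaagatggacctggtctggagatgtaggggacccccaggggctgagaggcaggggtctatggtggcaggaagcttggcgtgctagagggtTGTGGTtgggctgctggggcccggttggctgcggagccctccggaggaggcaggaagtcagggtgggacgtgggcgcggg
LCK proximal start: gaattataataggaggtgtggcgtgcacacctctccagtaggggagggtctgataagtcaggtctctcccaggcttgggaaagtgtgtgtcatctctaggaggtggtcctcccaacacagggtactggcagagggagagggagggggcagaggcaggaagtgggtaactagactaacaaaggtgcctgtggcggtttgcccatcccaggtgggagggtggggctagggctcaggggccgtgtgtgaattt
FYN start: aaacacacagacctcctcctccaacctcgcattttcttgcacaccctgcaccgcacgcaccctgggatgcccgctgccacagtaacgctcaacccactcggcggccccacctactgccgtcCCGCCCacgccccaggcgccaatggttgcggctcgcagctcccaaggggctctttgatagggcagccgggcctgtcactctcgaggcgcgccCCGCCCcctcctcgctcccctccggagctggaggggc
SYK 5′ start: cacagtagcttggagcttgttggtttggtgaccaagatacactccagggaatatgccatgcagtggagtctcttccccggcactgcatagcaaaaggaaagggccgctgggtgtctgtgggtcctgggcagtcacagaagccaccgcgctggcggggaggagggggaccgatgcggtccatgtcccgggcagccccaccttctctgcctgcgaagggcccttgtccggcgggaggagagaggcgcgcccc
SYK internal start: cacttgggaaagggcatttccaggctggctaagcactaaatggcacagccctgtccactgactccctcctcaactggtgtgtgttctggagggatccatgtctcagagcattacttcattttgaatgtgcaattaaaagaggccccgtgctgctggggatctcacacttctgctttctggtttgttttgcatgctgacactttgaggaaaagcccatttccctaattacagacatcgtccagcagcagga

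The starts that carried the mark in 1 line differed widely in base composition. The table held 14 start sites for 6 of the 9 genes and none for LYN, BLK and SRC. In windows of 300 bases, 250 before and 50 after the start, the median over 35116 promoters was 58.7% GC with a CpG ratio (observed over expected) of 0.58. Marked in RS4;11 only were the LCK distal start, with 64.3% GC and a ratio of 0.36, and the upstream BTK start, with 58.0% GC and a ratio of 1.07. Marked in THP-1 only were the FYN start printed here, with 69.0% GC and a ratio of 0.76, and a second FYN start, with 82.3% GC and a ratio of 1.09. The SYK internal start, with 49.0% GC and a ratio of 0.11, was also marked in THP-1 only and lay in the lowest 10.9% of all promoters by CpG ratio. Unmarked starts were GC-rich in part too. The upstream SYK 5′ start had 66.0% GC and a ratio of 0.58, the canonical SYK start 76.7% and 0.91, and the LCK proximal start 58.7% and 0.17, and all were marked in neither line.

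GC boxes were in the windows of 5 of the 6 genes at 1 start or more. A gene was counted with a match at any of its starts, so this count cannot be set beside the share over single promoters. Taken by window, GC boxes were in every FGR, YES1 and BTK window. They were also in those of the FYN start printed here, the second FYN start and the canonical SYK start. The other FYN and SYK windows had none. GGGCGG occurred in 45.0% of all promoters, with 2 matches in the window of the FYN start printed here, 8 in that of the second FYN start, 3 in that of the canonical SYK start and none in those of LCK. TGTGGT occurred in 13.1% of all promoters and was present once in the LCK distal window, with its first base at position -80 from the start. It was also in the windows of the second FGR start, with 2 matches, and the third FYN start, with 1. Those starts were marked in neither line. GAGGAAG occurred in 13.6% of all promoters, with 2 matches each in the windows of the FGR 5′ start, the canonical SYK start and the upstream BTK start and 1 in that of the main BTK start. TATAAA occurred in 11.5% of all promoters and in none of the 14 windows. A match is a string of letters and not evidence of a bound factor.

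LYN, the SRC family kinase that both starts and restrains B-cell receptor signalling, carried H3K4me3 at its 5′ start (chr8:56792394, plus strand) in both lines. The peak over this start was 3847 bp wide in RS4;11 (chr8:56791110-56794956) and 2887 bp in THP-1 (chr8:56791533-56794419), and the THP-1 peak lay wholly inside the RS4;11 one. Wider than 97.2% of the RS4;11 H3K4me3 peaks and 88.6% of the THP-1 ones, this was a broad peak in each list. A second annotated LYN start, in intron 1 of the longer transcript and 60399 bp from the 5′ end of the gene, lay inside a THP-1 peak of 1304 bp (chr8:56851626-56852929), while the nearest RS4;11 peak was 20126 bp away. LYN thus had 1 of its 2 start sites marked in RS4;11 and both in THP-1.

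The body of LYN also held more peaks in THP-1. It was listed with 5 H3K4me3 peaks in RS4;11 and 9 in THP-1, where the median listed gene had 2 in each line and 9 was above all but a small share of genes (percentile 99.4). Peaks whose RS4;11 centers lay 5888, 39601 and 95745 bp into the gene overlapped between the lines, as did the peak at the 5′ start. A peak centered 15426 bp upstream was listed in RS4;11 only, and 5 peaks inside the gene in THP-1 only. These 5 were 488 to 1304 bp wide and lay in introns 1, 10 and 12 of the longest coding transcript.

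The WDR5 peak listed for LYN in THP-1 (chr8:56788712-56789120) was 409 bp wide, close to the median THP-1 WDR5 width of 422 bp. Its center lay 3478 bp upstream of the 5′ start, outside the promoter window, and 2413 bp separated it from the nearest H3K4me3 peak, the one over the start. It overlapped no H3K4me3 peak in THP-1. In RS4;11 the nearest WDR5 peak was 0.40 Mb from the gene. A peak missing from a list is not evidence that WDR5 was absent there. The H3K4me3 peak over the 5′ start was wider in RS4;11. Summed over both start sites the order was the other way, at 3847 bp in RS4;11 and 4191 bp in THP-1. Whether WDR5 listing and H3K4me3 width go together at LYN was not tested.

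The pattern of LYN over the 4 samples (H3K4me3 in the promoter window in both lines, WDR5 listed in THP-1 and not in RS4;11) was held by 126 other genes of the 271 with a WDR5 peak listed in THP-1. The 5 genes closest to LYN in summed promoter width were SEC31A, ZDHHC3, CEBPZ, TRANK1 and KIAA0825. Their summed differences from LYN ran from 655 bp for SEC31A, a coat protein of secretory vesicles, to 894 bp for KIAA0825. This likeness covers 4 yes or no values and 2 widths only.

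FGR, a kinase of neutrophils and monocytes, had 1 promoter-window peak in each line. In THP-1 it was 1804 bp (chr1:27960325-27962128) and covered the 5′ start, and in RS4;11 it was 1336 bp (chr1:27960255-27961590) and stopped 106 bp inside the gene from that start. Both peaks shared 1266 bp, so the lists differed at the upstream edge. The other 4 start sites of FGR, 8616 to 11123 bp into the gene, lay in no promoter-window peak in either line. Of its other listed peaks, 1 in THP-1 covered the start of the neighboring gene AHDC1 and belonged to FGR only by distance.

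FYN, a kinase shared by T cells, B cells and brain, was marked at its 5′ end in THP-1 only. A pair of THP-1 peaks, 1395 and 1601 bp wide and nearly abutting (chr6:112194391-112195785 and chr6:112192744-112194344), covered 6 of its 17 start sites. In RS4;11 none of the 17 start sites had a peak in its window, and the nearest peak to the 5′ end was 22191 bp away. RS4;11 did have 3 peaks of 438 to 2025 bp in introns 1, 2 and 3, and none of these overlapped any of the 5 THP-1 peaks. The remaining 11 start sites, at 15069 to 114338 bp into the gene, were marked in neither line.

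LCK, the kinase of the T-cell receptor, showed the opposite pattern. Its distal start was covered in RS4;11 by a peak of 2104 bp (chr1:32716387-32718490) that held 3 of its 7 start sites, while in THP-1 the nearest peak was 9351 bp from the first of them. The proximal start, 22869 to 22888 bp into the gene with the other 4 start sites, had no peak in its window in either line. A further peak of 936 bp in intron 1 was listed in RS4;11 only. The peaks shared between the lines for LCK lay outside it, centered 10298 bp (RS4;11) and 10323 bp (THP-1) upstream of the distal start and at the start of HDAC1, a histone deacetylase gene downstream.

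The WDR5 peak listed for LCK in RS4;11 lay just past the end of the gene and not at its start. It was 469 bp wide (chr1:32751815-32752283), wider than 88.5% of RS4;11 WDR5 peaks, and began 49 bp after the last base of LCK. The same peak was listed for HDAC1, and 4418 bp separated it from the RS4;11 H3K4me3 peak over the HDAC1 start. The whole peak had 47.3% GC and a CpG ratio of 0.23. Its central 300 bases (chr1:32751900-32752199, plus strand, GRCh37) are printed because this was the WDR5 peak of the 9 genes in RS4;11, with capitals as above.
LCK 3′ WDR5 peak: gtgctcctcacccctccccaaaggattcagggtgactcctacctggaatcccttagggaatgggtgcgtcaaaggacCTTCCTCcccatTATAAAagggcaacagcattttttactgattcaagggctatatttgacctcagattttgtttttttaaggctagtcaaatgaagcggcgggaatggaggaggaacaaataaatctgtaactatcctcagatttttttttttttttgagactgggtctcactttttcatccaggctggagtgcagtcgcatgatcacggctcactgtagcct
They held 1 match each to TATAAA and to GAGGAAG, the latter on the minus strand. In THP-1 the nearest WDR5 peak was 9.89 Mb from LCK.

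The other 7 genes had no WDR5 peak listed in either line. In RS4;11 their distance to the nearest WDR5 peak ran from 0.11 Mb for SRC to 1.96 Mb for BTK. In THP-1 it ran from 0.71 Mb for SRC to 42.13 Mb for BTK. The WDR5 lists were short, with 703 peaks in RS4;11 and 225 in THP-1, beside 24212 and 26523 H3K4me3 peaks.

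BLK, a kinase found mainly in B cells, had no H3K4me3 at its protein-coding start (chr8:11351896, plus strand) in either line. Its 3 RS4;11 peaks, 366 to 1605 bp wide, lay in introns 1, 3 and 10. Its 3 THP-1 peaks, 525 to 767 bp wide, lay upstream of that start or at the 3′ end of the gene. The nearest THP-1 peak stopped 2011 bp short of the start, and the nearest RS4;11 peak was 26428 bp away. None of the BLK peaks overlapped between the lines.

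SRC, the founding member of the family, carried the mark at the same starts in both lines. Its 4 start sites all had a promoter-window peak in RS4;11 and in THP-1. The peak at the 5′ group of starts was 1052 bp in RS4;11 and 1638 bp in THP-1, and an internal start 39465 bp into the gene had peaks of 1133 and 1033 bp. SRC had 5 peaks listed in each line, 4 of which overlapped a peak of the other line, including a pair downstream of the gene. The lists thus differed little at SRC, apart from 1 intronic peak in each.

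YES1, a broadly expressed SRC family kinase, had a promoter-window peak in both lines but of very unequal width. The THP-1 peak was 4091 bp (chr18:810108-814198), wider than 99.3% of that list, and covered the 2 start sites at the 5′ end. In RS4;11 a peak of 543 bp (chr18:813113-813655), wider than 9.6% of its list, lay 566 bp upstream of the 5′ end and covered neither. With the start itself required inside the peak, YES1 and FGR therefore lost the mark in RS4;11 and kept it in THP-1.

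**Figure D2:**
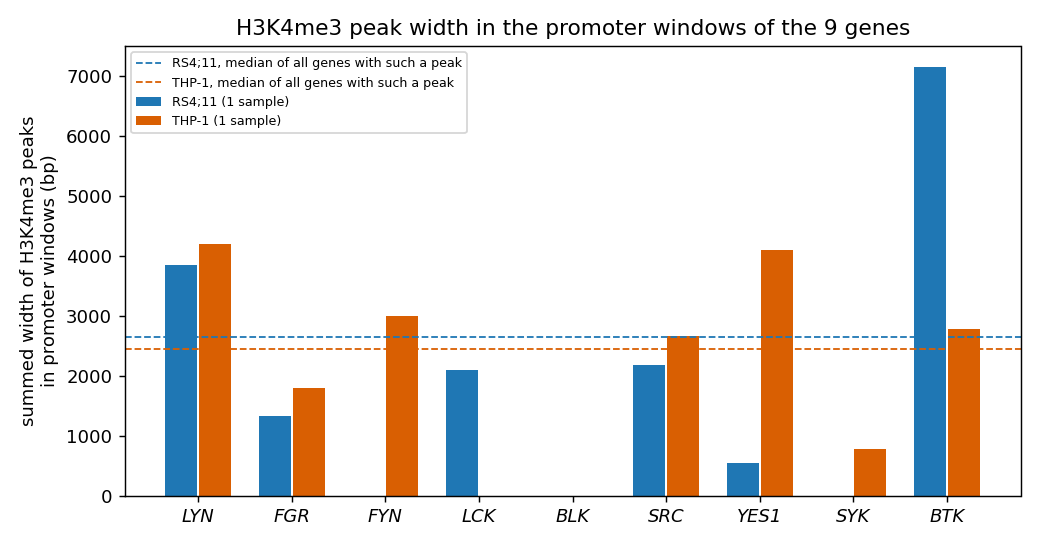
Summed width in bp of the H3K4me3 peaks in the promoter windows of each gene, with 1 bar for each line and 1 sample behind each bar. Dashed lines are the medians of all genes with such a peak, 2648 bp in RS4;11 and 2450 bp in THP-1. BTK stands highest in RS4;11 at 7144 bp, LYN and YES1 reach 4191 and 4091 bp in THP-1, and a missing bar means no peak in a promoter window.

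SYK, the kinase that binds phosphorylated receptor motifs, had no peak in the windows of its 3 start sites at the 5′ end. The nearest H3K4me3 peak, in intron 1, was listed in both lines, 1449 bp wide in RS4;11 and 508 bp in THP-1. An internal start 25701 bp into the gene lay inside a THP-1 peak of 770 bp (chr9:93589428-93590197), and RS4;11 had a peak of 564 bp 3494 bp further on. The promoter call of SYK in THP-1 thus rests on 1 narrow peak at an internal start, at percentile 25.3 of that list by width.

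BTK, the TEC family kinase of B cells and myeloid cells, was marked at its main start in both lines, at 6 start sites within 12 bp of each other. The peak was 4071 bp in RS4;11 (chrX:100637925-100641995) and 2784 bp in THP-1 (chrX:100639453-100642236), with 2543 bp in common. RS4;11 had a further peak of 3073 bp over the most upstream BTK start, 4605 bp before the main one, where THP-1 had none. That peak also covered the start of RPL36A, a ribosomal protein gene that runs in the opposite direction, so it cannot be given to BTK alone. With both peaks BTK reached 7144 bp in its promoter windows in RS4;11, more than 99.4% of genes with such a peak.

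Set side by side, 5 of the 9 genes (LYN, FGR, SRC, YES1 and BTK) had promoter-window H3K4me3 in both lines, against 49.5% of all genes. LCK was the gene with it in RS4;11 only (5.42% of all genes), FYN and SYK had it in THP-1 only (12.9%), and BLK had it in neither (32.2%). By start sites, 18 of 54 were in a promoter-window peak in RS4;11 and 22 of 54 in THP-1, where the shares over all protein-coding start sites were 49.8% and 55.1%. Start sites of 1 gene can share a peak, and the 17 of FYN weigh most in this count. The genes as a group were therefore near the background by gene and below it by start site.

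**Figure D3:**
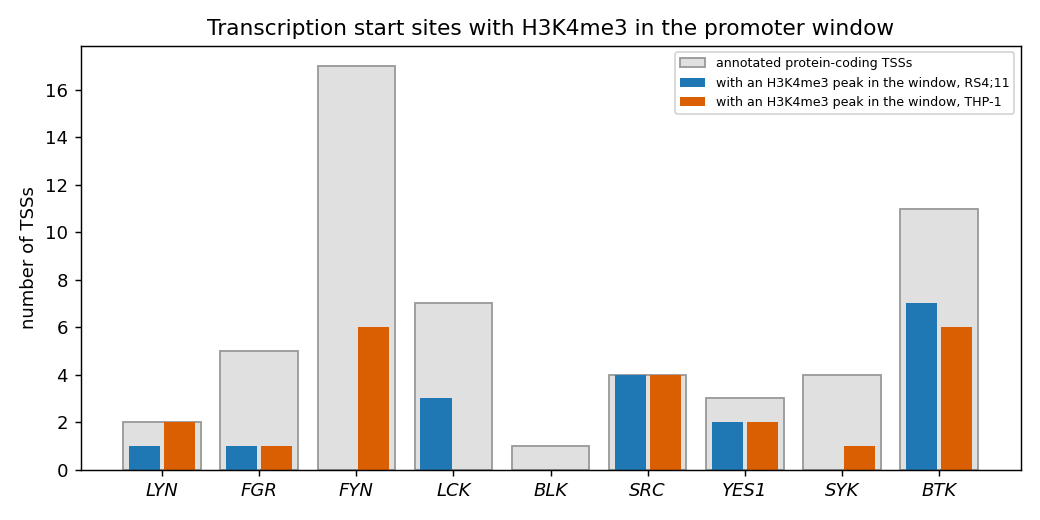
Number of start sites of protein-coding transcripts for each gene (grey) and the number with an H3K4me3 peak in the promoter window in RS4;11 (blue) and THP-1 (orange). FYN has 0 of 17 in RS4;11 and 6 in THP-1, LCK has 3 of 7 in RS4;11 and 0 in THP-1, and SRC has 4 of 4 in both.

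In RS4;11 8 of the 30 peaks and in THP-1 10 of the 35 were in a promoter window of the 9 genes. Counting the windows of any gene these were 10 (33.3%) and 14 (40.0%), where 43.8% of all RS4;11 and 47.3% of all THP-1 H3K4me3 peaks lay in one. Peaks in promoter windows of the 9 genes had a median width of 1720 bp in RS4;11 and 1619.5 bp in THP-1, and the others 1252 and 777 bp. Over all 30 and 35 peaks the medians were 1298 and 966 bp, beside 1391 and 1241 bp over all H3K4me3 peaks of each list. The start of another gene (TIMM8A, HDAC1, RPL36A, AHDC1 or ENOSF1) was covered by 3 RS4;11 and 4 THP-1 peaks, of which the RPL36A peak also covered a BTK start.

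Overlap between the lines was counted in each direction. Of the RS4;11 peaks 53.3% (95% Wilson interval 36.1 to 69.8) overlapped a THP-1 peak, and of the THP-1 peaks 45.7% (30.5 to 61.8) overlapped an RS4;11 peak. The same shares over all H3K4me3 peaks were 55.8% and 51.8%. The intervals cover counting error over peaks only. Of the peaks in a promoter window of any gene, 8 of 10 (80.0%) in RS4;11 and 8 of 14 (57.1%) in THP-1 overlapped, beside 85.3% and 73.7% over all such peaks. Outside those windows 8 of 20 (40.0%) and 8 of 21 (38.1%) overlapped, beside 32.9% and 32.2%.

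The H3K4me3 lists also lacked promoter-window peaks at genes in wide use. Of 73 ribosomal protein genes, which nearly all cells express, 58 (79.5%) had a promoter-window peak in RS4;11 and 50 (68.5%) in THP-1. This list was added after the data were seen, and its bearing on the missing peaks of FYN, LCK, BLK and SYK was not tested. Lineage markers went with the line names in part. CD79A, a signalling chain of the B-cell receptor, was marked in RS4;11 only, and CSF1R, ITGAM and CD68, genes of macrophages, in THP-1 only. Against this, PAX5 and EBF1, transcription factors of B cells, were marked in THP-1 only, with summed widths of 7347 and 2472 bp, and EBF1 had a WDR5 peak listed there. RAG1, a recombinase gene of early lymphocytes, was marked in both lines and had a WDR5 peak listed in RS4;11. In all, 6 of 10 B-lineage markers had the mark in each line, and 4 and 7 of 10 myeloid markers had it in RS4;11 and THP-1. Of 8 T-lineage markers only BCL11B, in RS4;11, had it. Over all genes 54.9% had the mark in RS4;11 and 62.4% in THP-1. The defining markers VPREB1, IGLL1, CEBPA and MPO had none in either line.

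The genes that act with these kinases were read the same way. Of 11 related kinases, 4 were marked in both lines, ZAP70 in RS4;11 only, and CSK, FRK, MATK and TXK in THP-1 only. Over all genes 49.5% were marked in both lines, 5.42% in RS4;11 only and 12.9% in THP-1 only. ZAP70, the SYK relative of T cells, had 3650 bp of promoter-window peak in RS4;11, the line that also marked LCK, and CSK, the kinase that switches SRC family members off, had 2810 bp in THP-1. None of the 11 had a WDR5 peak listed, where 4.04% of all genes in RS4;11 and 1.34% in THP-1 had one.

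B-cell receptor adaptors and effectors were the list with no unmarked gene. All 17 were marked in at least 1 line, 11 of them in both, where 32.2% of all genes were marked in neither and 49.5% in both. By line the counts were equal, at 14 of 17 in RS4;11 and 14 of 17 in THP-1, beside 54.9% and 62.4% of all genes. The list was chosen with earlier results of these data known. CD79A and GRB2 were among those marked in RS4;11 only, at 2816 and 6222 bp, and CR2 and PIK3AP1 among those marked in THP-1 only, at 1444 and 3415 bp. CD79A carries the receptor motif that LYN phosphorylates and SYK binds, whereas GRB2 is a ubiquitous adaptor. DAPP1, an adaptor phosphorylated by SRC kinases, was the one with a WDR5 peak listed, in RS4;11.

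Brakes on these kinases had the mark at 12 of 15 genes in THP-1 and at 8 of 15 in RS4;11. INPP5D, the lipid phosphatase SHIP, was marked in RS4;11 only at 4172 bp. CBLB, CD72, CSK, DOK3 and PAG1 were marked in THP-1 only, from 1061 bp for CD72 to 4124 bp for PAG1, the membrane adaptor that holds CSK. Over all genes the share was also higher in THP-1, at 62.4% against 54.9% in RS4;11. PIRB was not found in the annotation and was not counted.

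Among 14 myeloid receptors and adaptors, SIRPA was marked in RS4;11 only, at 1726 bp, and CSF1R, CSF3R, ITGAM and TYROBP in THP-1 only, at 1763 to 2761 bp. TYROBP, also called DAP12, carries the motif that SYK binds in myeloid cells. A further 4 were marked in both lines and 5 in neither. Over all genes 49.5% were marked in both lines and 32.2% in neither, with 5.42% in RS4;11 only and 12.9% in THP-1 only. Of 12 genes of T-cell receptor signalling, 5 were marked in both, LCP2 in RS4;11 only at 2859 bp, CD4 and SH2D1A in THP-1 only at 2219 and 438 bp, and 4 in neither. The CD3 genes CD3D, CD3E and CD3G, the partners of LCK at the receptor, were among those marked in neither line. No gene of these lists other than DAPP1 had a WDR5 peak listed, and the shares over all genes were 4.04% in RS4;11 and 1.34% in THP-1.

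**Figure D4:**
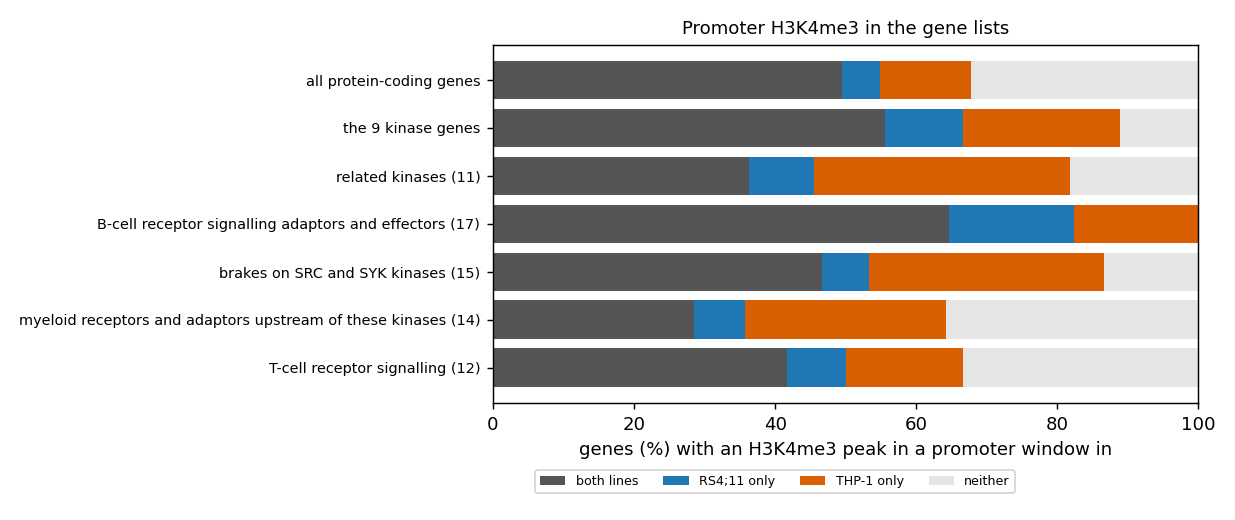
Percent of genes with an H3K4me3 peak in a promoter window in both lines (dark grey), RS4;11 only (blue), THP-1 only (orange) or neither (light grey), for all protein-coding genes, the 9 kinase genes and 5 lists of genes that act with them, with the number of genes in brackets. The B-cell receptor list has no gene in the last class, and lists of 9 to 17 genes move by several percent with each gene.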

How the data were processed

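Peak lists of 4 ChIP-seq samples were used. Per the labels, nuclei were sonicated; the methods of the study give micrococcal nuclease for H3K4me3. The authors placed the reads on hg19 using Eland (unique matches, up to 2 mismatches), took peaks from MACS with its default options and assigned genes by a script of their own. The processing notes name CASAVA 1.7 and 1.8.2. The MACS version and any input control are not given in the sources used here. The deposited values are peak positions with a transcript, a symbol and flags for upstream 20 kb, downstream 20 kb, exon and intron, so no score, count or depth could be used.

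Lines repeating a peak for several transcripts were reduced to distinct peaks, and members were found by symbol. All 19 member accessions matched RefSeq. Start sites came from GENCODE release 44 lifted to GRCh37. No peak on a sequence of this reference lay past its end. Peaks on other sequences could not be checked: 37 H3K4me3 and 4 WDR5 peaks in RS4;11, and 35 and 6 in THP-1. They stayed in the totals and could match no promoter window. A promoter-window peak shared at least 1 bp with 2000 bp upstream to 500 bp downstream of a protein-coding start site. The search for such peaks was tested on simulated data, and 200 of 200 planted peaks were recovered among 400 genes. The peaks were planted with the same window definition, so this checks the search only and not the annotation or the choice of window. Python 3.11.15 was used.

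Genes named were the 9 members, list genes marked in 1 line only or with WDR5 listed (at most 12 a list), and the 5 genes most like LYN. Some list genes that this rule names are not reported here. Members and lists were chosen with earlier results of these data known. No statistical test was run, since each antibody and line had 1 sample.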

Additional observations from a re-analysis of the deposited data

How the results depend on the processing

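The 14 counts, widths and percentages over the 9 genes were recomputed under 32 alternatives, and 30 stayed within 1.5 times the value given (for percentages, within its interval). Both that moved were in RS4;11, where the genes with promoter-window H3K4me3 fell from 6 to 3. With the peak center required in the window these were SRC, YES1 and BTK, and with peaks at least as wide as the median they were LYN, LCK and BTK. The same alternatives gave 7 and 6 genes in THP-1. Some alternatives that stayed within the limit still changed the counts. Without peaks listed only for lying within 20 kb, 20 of 30 peaks were left in RS4;11 and 25 of 35 in THP-1. With the start required inside the peak, the genes in RS4;11 went from 6 to 4. With start sites of every annotated transcript the counts were 7 in RS4;11 and 8 in THP-1, and BLK was then among them in both lines. No paired analysis was possible because each antibody and line had 1 sample, and for the same reason no replicate could be left out. Peak calls and widths depend on depth, which is unknown, and whether a peak listed in 1 line only was near the calling threshold in the other was not tested.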
